A study of Homo sapiens with 1536 samples.

Results

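Of the 180 compounds in this screen, 9 were VEGF receptor and multikinase inhibitors, taken by name as Cediranib, Regorafenib, Cabozantinib, Ki8751, Sorafenib, Lenvatinib, Pazopanib, Brivanib and Tivozanib. They filled 72 of the 1536 wells and gave 360 of the deposited rows, where a row is a well and a cell line. Each well held a mixed pool of 5 established breast cancer cell lines, of which BT-20, MDA-MB-231 and HCC-38 are triple-negative, SKBR3 is HER2+ and ZR-75-1 is ER+. Every line carried doxycycline-inducible Cas9, which all wells, DMSO wells included, received 100 ng/mL doxycycline to induce for 7 days before treatment. Each cell of the pool also carried an sgRNA against 1 of 11 stress-response and related genes, or a non-targeting sgRNA (sgNT, 5 guides summed). Each compound was given at 10, 100, 1000 and 10000 nM in 2 wells for 72 h, and the control was DMSO in 96 wells on 16 plates, 6 per plate. The 2 wells of a dose were treated from the same compound dilution and the same pool, so p-values measure the spread between wells and not between cultures. The wells were read by amplifying and sequencing a barcode for the cell line and the sgRNA, so loss of the targeted protein was not measured in them.

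VEGF receptors are receptor tyrosine kinases best known from endothelial cells, where VEGF binding drives the growth of new blood vessels. The pool held tumour cells and no endothelial line, and a known number of human embryonic kidney cells was added as standards at lysis, so the angiogenic role of these kinases was outside the measurement. Most VEGFR inhibitors bind the ATP pocket and also reach related kinases. The compound annotation of the study lists VEGFR alone for Ki8751 and Tivozanib, and VEGFR with autophagy for Brivanib. It adds PDGFR, which drives mesenchymal cell growth, for Cediranib, Regorafenib, Pazopanib and Lenvatinib. It adds Raf, the kinase that passes the signal from Ras to MEK, for Sorafenib and Regorafenib. Cabozantinib is listed with the HGF receptor Met, Kit, FLT3 and the TAM receptors, and Lenvatinib with FGFR, Kit and RET.

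Among these compounds, Sorafenib and Regorafenib differ by a fluorine on a phenyl ring. Cediranib and Brivanib share a fluoro-methylindolyl ether. Lenvatinib and Tivozanib share a quinoline ether joined to a chlorophenyl urea, and Tivozanib and Cabozantinib share a dimethoxyquinoline ether. These 4 pairs were compared at matched doses and are the related pairs named below. Ki8751, given here by its code name alone, was placed in no pair. Whether it shares a scaffold with the other compounds was not assessed.

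Relative cell numbers rest on pairs of barcodes, and the barcodes below are shown because several results turn on reads in which the barcodes had been exchanged. The capitals mark the whole 8-base barcode of each cell line, 5′ to 3′. Any 2 of the 6 line barcodes differed at 4 to 8 bases.
ZR-75-1: ATCACTGG
SKBR3: CGGTGACC
HCC-38: TACAGAGG
MDA-MB-231: TAACAGTT
BT-20: ATTGTCAA
Standard cells: GCTGGATT
The sgRNA sequences that follow are those of the guides described with values below. ATF4 and ATF3 are transcription factors of the integrated stress response, and ATF6 and XBP1 act in the unfolded protein response. KEAP1 is the adaptor that marks NFE2L2 (NRF2), the main transcription factor of the oxidative stress response, for degradation. ATG7 is an E1-like enzyme needed to form autophagosomes, and SLC35F2 is a membrane transporter.
sgATF4: agatgaccttctgaccacgt
sgATF3: ccagcgcagaggacatccgg
sgATF6: tgagccctgcaaatcaaagg
sgXBP1: cctcccaggggaatgaagtg
sgKEAP1: cagcaccgttcatgacgtgg
sgNFE2L2: cacatccagtcagaaaccag
sgATG7: cttgaaagactcgagtgtgt
sgSLC35F2: catgacagagccatcaacac
Any 2 of the 21 guides differed at 10 to 19 of 20 bases, more than the 1 mismatch allowed in counting.

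The 72 wells of the 9 compounds held 159861 to 1597450 reads, with a median of 668776, and the DMSO wells 155067 to 986006, with a median of 522691. Relative cell number is given throughout as a percentage of the median DMSO well for the same line and sgRNA, averaged over the 12 sgRNAs of a line (10 in ZR-75-1). Over the 96 DMSO wells its SD lay between 10.6% in BT-20 and 14.3% in ZR-75-1. The median difference between the 2 wells of a compound was 0.20 on the log2 scale at 10000 nM and 0.10 at 10 nM.

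Several libraries of Cediranib and Lenvatinib stood apart from DMSO by their barcodes. The pool could not contain 41 of the counted barcode pairs, namely the barcode of the standard cells with a library sgRNA or a breast line barcode with a standard sgRNA. Reads on these pairs, over the number expected if line and sgRNA barcodes joined freely, gave the share of reads with swapped barcodes in a well. That share had a median of 1.63% and a maximum of 7.91% in the DMSO wells. In the Cediranib wells it was 24.2 and 20.0% at 10 nM, 23.4 and 10.4% at 100 nM and 12.8 and 10.1% at 1000 nM. At 10000 nM both Cediranib wells stood at 2.07 and 2.06%, within the DMSO range. The lower 3 doses of Cediranib thus lay above every DMSO well and the highest dose did not.

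For Lenvatinib the swapped share was 9.03 and 15.5% at 10 nM, 14.01 and 7.97% at 100 nM, 12.8 and 9.63% at 1000 nM and 6.60 and 13.3% at 10000 nM. It therefore exceeded the DMSO maximum in 7 of its 8 wells. Regorafenib reached 6.20 and 7.71% at 10 nM, 7.85 and 2.30% at 100 nM and 4.99 and 7.23% at 1000 nM, all within the DMSO range. The second Cabozantinib well at 10 nM, at 8.08%, was the remaining well above the DMSO maximum, and the first stood at 3.03%.

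In exact two-sided permutation tests of 2 against 96 wells, 9 of the 36 compound-dose groups passed after Benjamini-Hochberg adjustment. These were Cediranib at 10, 100 and 1000 nM and Lenvatinib at 10, 100 and 1000 nM (adjusted p = 0.00126 each, from 0.000210, the smallest p the permutations can give), Lenvatinib at 10000 nM (adjusted p = 0.00649 by the same exact test) and Regorafenib at 10 nM (adjusted p = 0.0227 by the same exact test) and 1000 nM (adjusted p = 0.0421 by the same exact test). With the second wells left out none passed after adjustment and 8 at an unadjusted p of 0.05, in a design whose smallest p is then 0.0103. The plain percentage of reads on the 41 pairs was tested in the same way. By it Cediranib at 10000 nM (adjusted p = 0.00095, exact test), Brivanib at 10000 nM (0.036) and Cabozantinib at 10 nM (0.0499) passed as well. The DMSO labels tie each dose and replicate number to 2 plates, with 12 DMSO wells. All 6 Cediranib wells at 10 to 1000 nM and all 8 Lenvatinib wells had a swapped share above each of those 12. So did both Regorafenib wells at 1000 nM and its first at 100 nM. The same held for the second Cabozantinib wells at 10 and 1000 nM, the second Brivanib well at 10000 nM and the first Tivozanib well at 100 nM. By the mean over its 8 wells, Cediranib at 13.1% ranked 13 and Lenvatinib at 11.1% ranked 17 among all compounds with deposited values. In the series, 14.7% of compound-dose groups, from 41 compounds, lay above the highest DMSO well, so the swaps were not confined to these inhibitors.

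**Figure D1:**
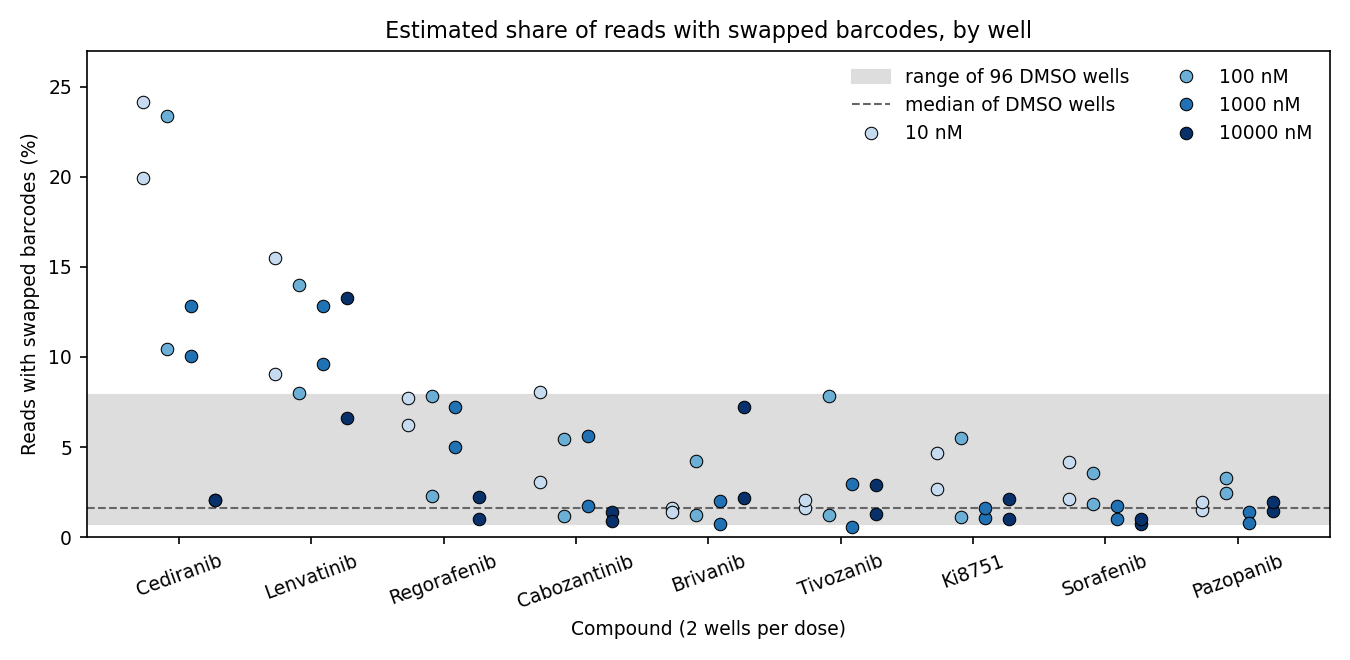
Estimated share of reads with swapped barcodes in each of the 2 wells per dose (vertical axis, %), by compound, with darker points for higher doses. The grey band is the range of the 96 DMSO wells, up to 7.91%, and the dashed line their median of 1.63%; Cediranib lies above the band at 10 to 1000 nM and inside it at 10000 nM.

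Counts corrected for these swaps were used beside the deposited values wherever they bear on a result. The correction lowered the line means of Cediranib by a median of 0.29 on the log2 scale at 10 nM (log2 shift −0.29), 0.20 at 100 nM (−0.20) and 0.11 at 1000 nM (−0.11), and raised them by 0.02 at 10000 nM. In Lenvatinib wells the median shifts were −0.13, −0.12, −0.12 and −0.10 from the lowest to the highest dose. Other median shifts were between −0.06 (Regorafenib, 10 nM) and 0.02. The deposited values of Cediranib at the lower doses are thus higher than the corrected ones: at 10 nM the HCC-38 mean was 122.4% as deposited and 96.6% after correction.

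At 10 and 100 nM the wells of the 9 compounds held 70.9 to 152.1% of the DMSO cell number, and at 10000 nM most of the compounds lowered it in most lines. In the limma fit over all compounds, with Benjamini-Hochberg adjustment over 3480 tests, 0 of 45 compound-line means passed at 10 nM, where 10.5% over all compounds of the series were lower and 2.18% higher. At 100 nM 1 of 45 was lower (22% over all compounds) and 1 higher (1.61%). At 1000 nM 3 of 45 were lower (35.3% over all compounds) and 1 higher (1.38%). At 10000 nM 38 of 45 were lower (65.7% over all compounds) and 0 higher (1.11%). All these comparisons share the same 96 DMSO wells. Set against the 12 DMSO wells of the same dose and replicate number, both wells lay below the DMSO mean in all 38 means called lower at 10000 nM, and below every such DMSO well in 36.

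**Figure D2:**
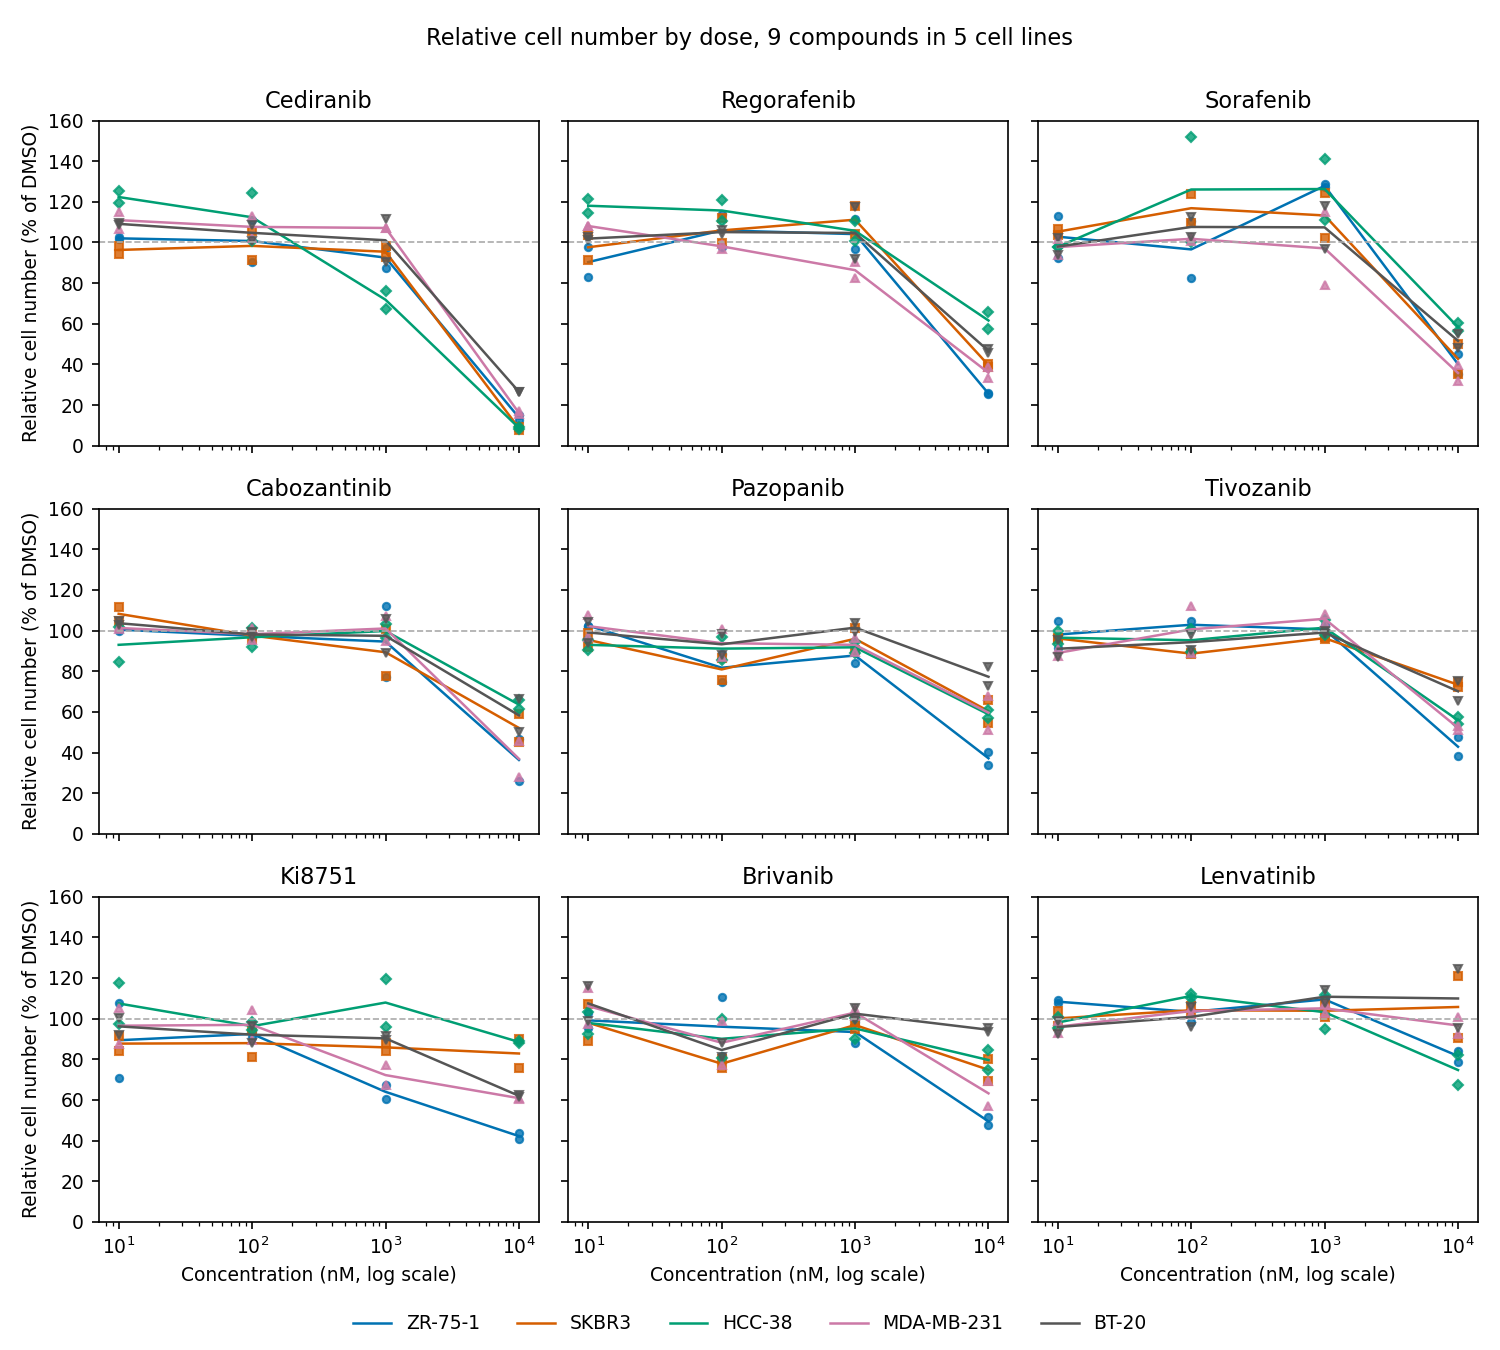
Relative cell number (vertical axis, % of DMSO) against concentration (horizontal axis, nM, log scale) for the 9 compounds, ordered by their mean at 10000 nM. Points are the 2 wells, lines join their means, and colours are the 5 cell lines; most curves stay near 100% up to 1000 nM, and Lenvatinib keeps the highest mean over the lines at 10000 nM.

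The calls below the highest dose came from 4 compounds. Ki8751, listed with VEGFR alone, lowered ZR-75-1 at 1000 nM to 67.4 and 60.5% (adjusted p = 5.8e-05, limma) and MDA-MB-231 to 77.1 and 67.3% (adjusted p = 9.1e-04, limma). Cediranib lowered HCC-38 at 1000 nM to 67.5 and 76.2% (adjusted p = 6.0e-05, limma), and the mean of 71.8% became 65.1% after swap correction. All these wells lay below the lowest DMSO well of their line, except the first Ki8751 well in ZR-75-1, where the lowest DMSO well stood at 64.3%. The remaining lower call was Brivanib in SKBR3 at 100 nM, at 75.6 and 80.02% (adjusted p = 0.023, limma), inside the DMSO range and lost when either well was left out (adjusted p = 0.19 and 0.078, limma) or with dose and replicate number as a block (adjusted p = 0.064, limma). The higher calls were both Sorafenib in HCC-38. Its wells stood at 152.1 and 100.03% at 100 nM (adjusted p = 0.040, limma) and at 141.3 and 111.3% at 1000 nM (adjusted p = 0.023, limma). The second well lay within the DMSO range at both doses, and neither call passed without the first (adjusted p = 0.96 and 0.61, limma). With swap-corrected counts another 5 means passed. These were Cediranib in SKBR3 at 10 nM (79.3%), Pazopanib in SKBR3 at 100 nM (80.4%), Brivanib in BT-20 at 100 nM (84.1%), Sorafenib in ZR-75-1 at 1000 nM (129.3%) and Lenvatinib in ZR-75-1 at 10000 nM (75.2%), with adjusted p from 0.013 to 0.040 (limma). The Sorafenib and Lenvatinib means in ZR-75-1 also passed with dose and replicate number as a block (adjusted p = 0.025 and 0.041, limma).

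Cediranib, listed with VEGFR, PDGFR and autophagy, gave the lowest cell numbers of the 9 at 10000 nM. Its wells stood at 26.7 and 26.5% in BT-20, 16.9 and 15.5% in MDA-MB-231, 12.9 and 14.9% in ZR-75-1, 9.48 and 8.11% in HCC-38 and 9.42 and 7.97% in SKBR3. Every well lay below the lowest DMSO well of its line, and the fold of DMSO ran from 0.0866 in SKBR3 (95% interval 0.0720 to 0.104) to 0.264 in BT-20 (0.228 to 0.307), all 5 passing the test. The standard cells took 37.8 and 38.02% of the reads in these wells, against a mean of 6.19% in DMSO. Between 1000 and 10000 nM the means dropped from 95.5 to 8.70% in SKBR3 and from 71.8 to 8.79% in HCC-38. By the geometric mean over the 5 lines, 13.4% of DMSO, Cediranib ranked 13 among all compounds tested at that dose.

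Regorafenib and Sorafenib, the inhibitors also listed with Raf, followed. Regorafenib wells at 10000 nM stood at 47.7 and 45.7% in BT-20, 38.7 and 33.2% in MDA-MB-231, 25.3 and 26.1% in ZR-75-1, 65.8 and 57.5% in HCC-38 and 40.4 and 38.9% in SKBR3. Sorafenib wells stood at 54.9996 and 48.3% in BT-20, 39.5 and 32.1% in MDA-MB-231, 45.2 and 35.1% in ZR-75-1, 56.2 and 60.5% in HCC-38 and 50.3 and 35.3% in SKBR3. Both compounds lay below all DMSO wells in all 5 lines. HCC-38 kept the highest number with both, and their geometric means over the lines were 39.9 and 44.4%.

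Cabozantinib, which also targets Met, had wells further apart than most. They stood at 66.3 and 50.3% in BT-20, 45.8 and 28.003% in MDA-MB-231, 46.5 and 26.2% in ZR-75-1, 65.8 and 61.4% in HCC-38 and 58.97 and 45.2% in SKBR3. The second well was the lower in every line, and all wells lay below the DMSO range. Tivozanib, listed with VEGFR alone, stood at 65.2 and 75.1% in BT-20, 53.3 and 51.03% in MDA-MB-231, 38.3 and 47.4% in ZR-75-1, 54.1 and 57.7% in HCC-38 and 72.1 and 74.6% in SKBR3. It passed in all 5 lines, although its SKBR3 wells lay within the DMSO range and that call was lost without the first well (adjusted p = 0.062, limma).

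Pazopanib, listed also with Kit and PDGFR, stood at 81.9 and 72.6% in BT-20, 68.1 and 51.1% in MDA-MB-231, 40.4 and 33.999% in ZR-75-1, 60.8 and 56.8% in HCC-38 and 66.1 and 54.7% in SKBR3. All 5 lines passed, with BT-20 the weakest (fold of DMSO 0.766, 95% interval 0.660 to 0.889) and lost without the second well (adjusted p = 0.15, limma). Ki8751 stood at 62.5 and 61.6% in BT-20, 60.6 and 61.1% in MDA-MB-231 and 40.6 and 43.8% in ZR-75-1, which all passed. Its wells were at 88.97 and 88.1% in HCC-38 and 89.9 and 75.8% in SKBR3, within the DMSO range, and neither passed (adjusted p = 0.21 in HCC-38 and 0.11 in SKBR3, limma).

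Brivanib stood at 93.4 and 95.6% in BT-20, 57.2 and 69.3% in MDA-MB-231, 47.5 and 51.4% in ZR-75-1, 74.9 and 84.4% in HCC-38 and 80.2 and 69.5% in SKBR3. It passed in every line but BT-20 (fold of DMSO 0.939, 95% interval 0.809 to 1.09). The calls in SKBR3 and HCC-38 were each lost when a well was left out (adjusted p = 0.20 without the second well and 0.22 without the first, limma).

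Lenvatinib, listed with VEGFR, FGFR, PDGFR, Kit and RET, had the highest mean over the lines. Its wells stood at 95.5 and 124.3% in BT-20, 92.3 and 100.95% in MDA-MB-231, 78.9 and 84.3% in ZR-75-1, 67.2 and 82.2% in HCC-38 and 90.7 and 120.7% in SKBR3. Only HCC-38 passed (fold of DMSO 0.734, 95% interval 0.628 to 0.858, adjusted p = 3.9e-04, limma), and not without the first well (adjusted p = 0.14, limma). These wells carried 6.60 and 13.3% of swapped reads, and with corrected counts ZR-75-1 passed as well. The 95% interval of its fold in MDA-MB-231, 0.799 to 1.14, leaves room for a small change in either direction.

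**Figure D3:**
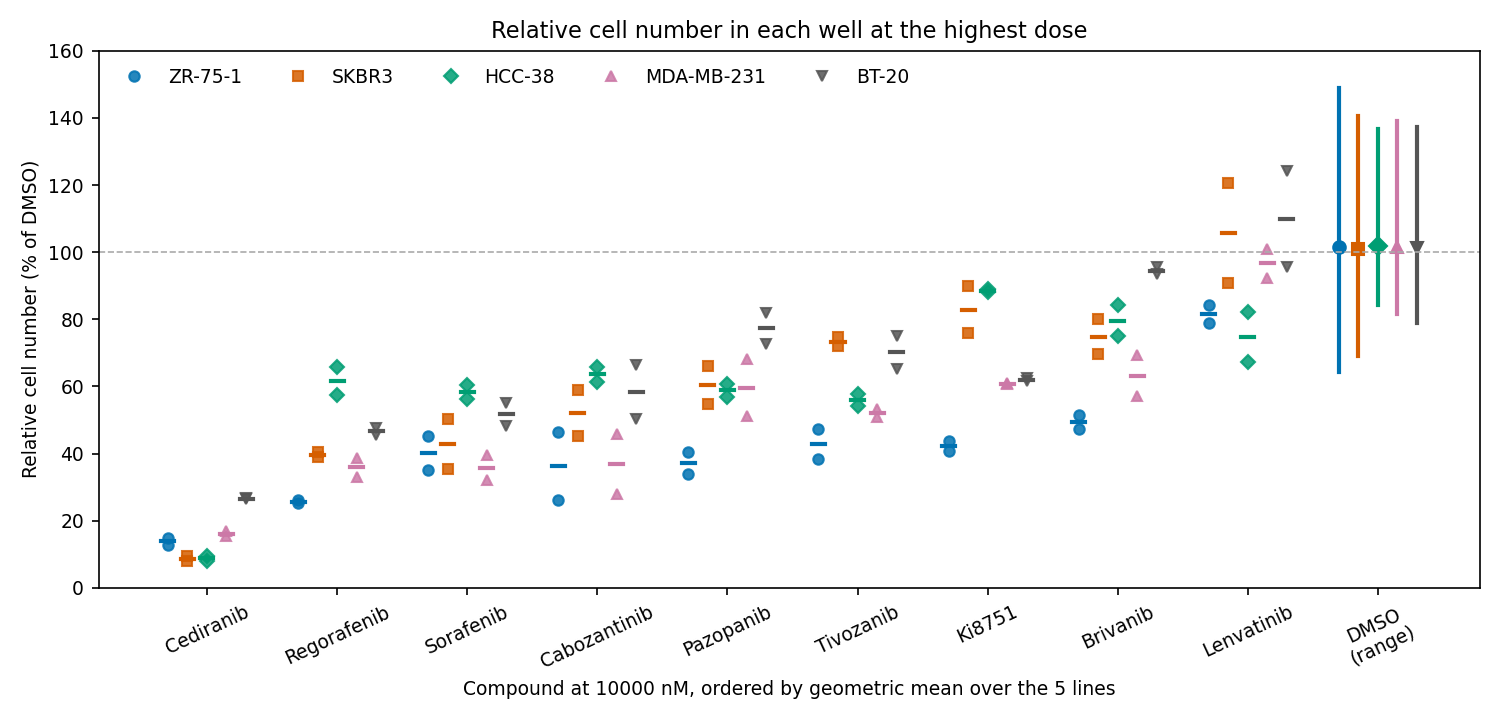
Relative cell number (vertical axis, % of DMSO) in each well at 10000 nM, with compounds ordered by their geometric mean over the lines. Points are wells, short bars the means of 2 wells, colours the cell lines, and the last column the mean and range of the 96 DMSO wells; Cediranib lies below 30% in all lines, and all Lenvatinib wells lie above 65%.

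By the geometric mean over the 5 lines, the order at 10000 nM was Cediranib (13.4%), Regorafenib (39.9%), Sorafenib (44.4%), Cabozantinib (46.95%), Pazopanib (56.5%), Tivozanib (57.2%), Ki8751 (64.6%), Brivanib (70.002%) and Lenvatinib (91.5%). Cediranib was the lowest in every line. The order of the others changed with the line: Tivozanib was next to Cediranib in HCC-38 and in position 7 in ZR-75-1, while Ki8751 was the highest in HCC-38 at 88.5%.

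All 36 pairs of the 9 compounds were compared at each dose and line with limma, and p-values were adjusted over the 720 comparisons, of which 18.2% passed. Of the 180 comparisons at each dose, 0 passed at 10 nM, 4 at 100 nM, 16 at 1000 nM and 61.7% at 10000 nM. With a well per dose left out, the share at 10000 nM was 40.6% (without the second) and 56.1% (without the first), and the lower doses gave 9 and 10 differences in place of 20. At 10000 nM Cediranib was lower than the other compound in 40 of 40 comparisons, Regorafenib lower in 21 and higher in 5, and Sorafenib lower in 17 and higher in 6. Lenvatinib was higher in 30 and lower in 0, and Brivanib higher in 20 and lower in 2. At 1000 nM Cediranib was the lower compound in 6 differences, all in HCC-38, and Ki8751 in 9, all in ZR-75-1 or MDA-MB-231, and the remaining difference was Sorafenib above Pazopanib in HCC-38.

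Sorafenib and Regorafenib, which differ by a fluorine, differed in 1 of 5 lines at 10000 nM. In ZR-75-1 Sorafenib left 40.2% and Regorafenib 25.7%, a ratio of 1.55 (95% interval 1.17 to 2.07, adjusted p = 0.018, limma). In the other lines the ratio of Sorafenib to Regorafenib was 1.10 in BT-20 (0.896 to 1.36), 0.993 in MDA-MB-231 (0.772 to 1.28), 0.949 in HCC-38 (0.763 to 1.18) and 1.06 in SKBR3 (0.820 to 1.37). None of these 4 passed, and their intervals leave room for differences of up to about 1.37 times. The ZR-75-1 difference did not pass without the first well (adjusted p = 0.43, limma), nor with reads divided by those of the standards (adjusted p = 0.51, limma).

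Cediranib and Brivanib, which share the indolyl ether, differed the most of the 4 related pairs. Brivanib left 3.55 times as many cells as Cediranib in BT-20 (95% interval 2.88 to 4.38), 3.89 times in MDA-MB-231 (3.03 to 5.01), 3.56 times in ZR-75-1 (2.67 to 4.74), 9.07 times in HCC-38 (7.29 to 11.3) and 8.61 times in SKBR3 (6.65 to 11.1). All 5 passed, the highest adjusted p being 4.9e-16 (limma). At 1000 nM no line passed for this pair or for any of the other related pairs.

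Lenvatinib and Tivozanib, which share the quinoline ether and chlorophenyl urea, differed in 4 of 5 lines at 10000 nM, with Lenvatinib higher. Tivozanib left 0.523 times as many cells as Lenvatinib in ZR-75-1 (95% interval 0.392 to 0.696), 0.701 times in SKBR3 (0.541 to 0.907), 0.540 times in MDA-MB-231 (0.420 to 0.695) and 0.642 times in BT-20 (0.521 to 0.791). In HCC-38 the ratio was 0.752 (0.604 to 0.935) and did not pass after adjustment (adjusted p = 0.055, limma). The SKBR3 difference was lost with swap-corrected counts (adjusted p = 0.12, limma), and those in SKBR3 and BT-20 without the second well (adjusted p = 0.56 and 0.083, limma). With sgNT cells alone ZR-75-1 was the only line of the 4 to keep its call.

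Tivozanib and Cabozantinib, which share the dimethoxyquinoline ether, differed in 2 of 5 lines. Tivozanib left 1.42 times as many SKBR3 cells (95% interval 1.10 to 1.84, adjusted p = 0.043, limma) and 1.46 times as many MDA-MB-231 cells (1.13 to 1.87, adjusted p = 0.022, limma). The ratio was 1.22 in ZR-75-1 (0.917 to 1.63), 0.880 in HCC-38 (0.707 to 1.09) and 1.21 in BT-20 (0.983 to 1.49), none of which passed. Both calls were lost without the second well, the lower of the 2 Cabozantinib wells (adjusted p = 0.64 in SKBR3 and 0.72 in MDA-MB-231, limma).

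**Figure D4:**
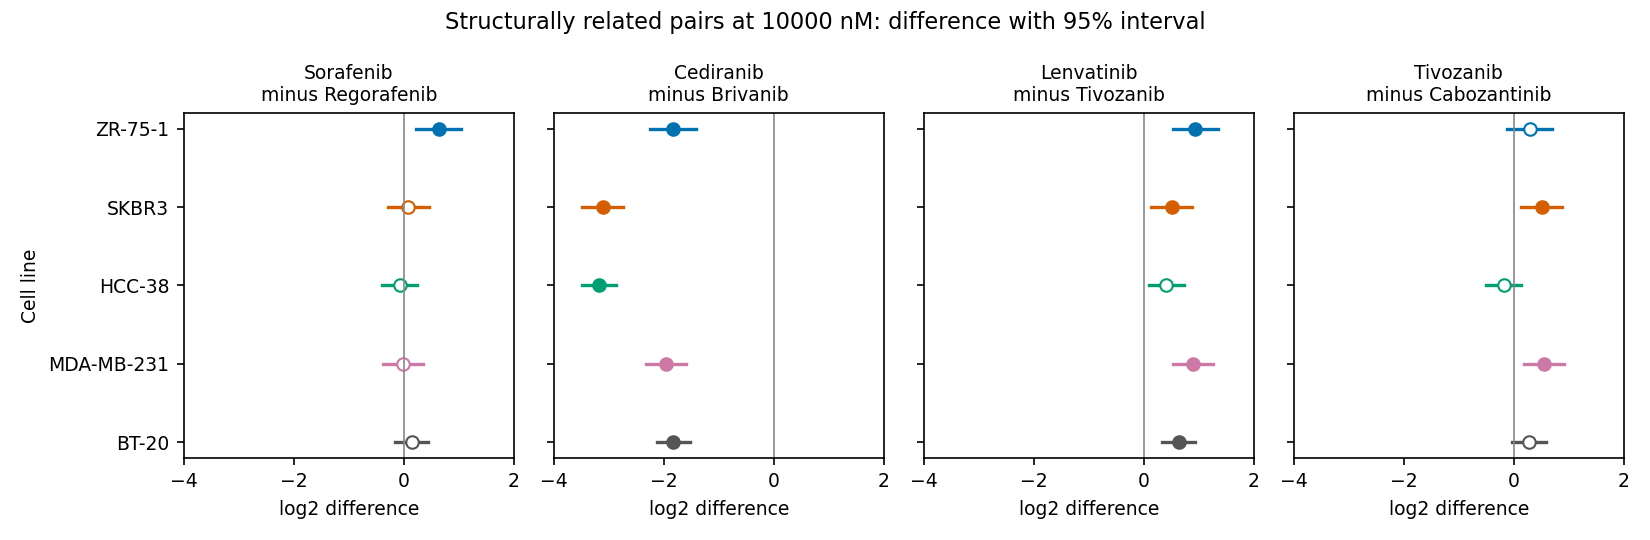
Log2 difference in relative cell number at 10000 nM (horizontal axis) between the compounds of 4 structurally related pairs, by cell line (vertical axis). Points are differences, bars their 95% intervals, and filled points passed an adjusted p of 0.05; Cediranib lies below Brivanib in all 5 lines and Sorafenib differs from Regorafenib in ZR-75-1 alone.

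Over the 20 values of a pair (4 doses, 5 lines), the closest pairs by root mean square log2 difference were Pazopanib with Tivozanib (0.16) and Pazopanib with Brivanib (0.19). The farthest were Cediranib with Lenvatinib (1.42) and Cediranib with Brivanib (1.24). Pairs were picked here for this distance, so it is a description. At 10000 nM Cediranib left 8.70% and Lenvatinib 105.7% of SKBR3 cells, the widest gap of all pairs at 12.1 times.

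The area under the curve over the 4 doses (AUC, 300 for untreated cells) gives the lowest and highest doses a weight of 0.5. Cediranib had AUCs from 246.3 in SKBR3 to 278.4 in MDA-MB-231, and Lenvatinib from 300.7 in HCC-38 to 314.5 in BT-20. Of 180 pair comparisons of AUC, 43 passed (23.9%, limma). Among the related pairs only Lenvatinib and Tivozanib differed, by 41.3 in SKBR3 (adjusted p = 0.023, limma) and by 40.6 in BT-20 (adjusted p = 0.011, limma). With swap-corrected counts these differences were 17.5 (adjusted p = 0.29, limma) and 17.2 (adjusted p = 0.24, limma). The AUC of Cediranib then lay below that of Brivanib by more than the spread in 4 lines, by 43.7 in SKBR3 (difference −43.7, adjusted p = 0.0030, limma) and 61.8 in HCC-38 (−61.8, adjusted p = 1.6e-05, limma), where the deposited differences had been −14.7 and −24.2 and had not passed (adjusted p = 0.49 and 0.22, limma). Sorafenib then lay above Regorafenib in ZR-75-1 (Regorafenib minus Sorafenib −38.5, adjusted p = 0.043, limma) and HCC-38 (−29.4, adjusted p = 0.048, limma). In HCC-38 the deposited AUCs of the first and second wells were 370.4 and 290.6 with Sorafenib and 311.99 and 310.7 with Regorafenib. Only the first Sorafenib AUC there lay above those of Regorafenib, and the second lay below both. With swap-corrected counts 63 of the 180 AUC comparisons passed, 31 of them among the 43.

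Cell lines of a well were compared with each other, each against the mean of the other 4, with the well as a block (limma, adjusted over 3480 tests). Of 180 comparisons for the 9 compounds, 38 passed, 19 lower and 19 higher, where 26.9% passed over all compounds and doses and 50.9% at 10000 nM. The count was 18 without the well as a block and 7 with sgNT cells alone. ZR-75-1, the ER+ line, was lower than the others at 10000 nM with 7 of 9 compounds, the exceptions being Cediranib and Sorafenib. The share over all compounds at that dose was 33.3%. BT-20, a triple-negative line, was higher with 7 of 9 (57.4% over all compounds), the exceptions being Ki8751 and Sorafenib, and lower with none (0.617%). HCC-38 was higher with 4 (40.7% over all compounds) and lower with 2, Cediranib and Lenvatinib (11.7%). SKBR3 was higher with Ki8751, Lenvatinib and Tivozanib (14.2% over all compounds) and lower with Cediranib (34%). MDA-MB-231 was lower with Regorafenib, Cabozantinib and Sorafenib (37.7% over all compounds) and higher with Cediranib (10.5%). With Ki8751, HCC-38 exceeded the other lines by 1.47 times (88.5 against 60.2%) and with Regorafenib by 1.70 times (61.6 against 36.1%).

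Compounds with related targets are given beside these at 10000 nM, with no test between the lists. The 6 Raf and MEK inhibitors Dabrafenib, GDC0879, PLX4720, PD318088, Selumetinib and Trametinib, which act on the MAP kinase cascade, were lower in 12 of 30 compound-line means, with a median log2 change of −0.14. The 6 EGFR and HER2 inhibitors Afatinib, Canertinib, Erlotinib, Gefitinib, Lapatinib and Neratinib were lower in 27 of 30 (median −1.42), and Linifanib, also listed with VEGFR, in 5 of 5 (median −1.44). The 9 compounds were lower in 38 of 45 (median −0.80), and the other compounds at that dose in 64.6% (median −0.67). At 1000 nM the counts were 3 of 45 for the 9 compounds, 5 of 30, 16 of 30 and 0 of 5 for these lists, and the share was 36.8% for the other compounds.

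Few sgRNA shares passed the test under these compounds. The share of each sgRNA was set against the median of the sgRNAs in its line and well, relative to DMSO, and tested on read counts (edgeR quasi-likelihood, adjusted over 40368 tests). Of 2088 tests for the 9 compounds 8 passed, against 0.877% over all compounds. Cediranib at 10000 nM had the most tests at an unadjusted p under 0.05, 15 of 58, where the other compound-dose groups had 1 to 7. No test passed for the heat shock factors HSF1 and HSF2, nor for the transporter SLC35F2. sgSLC35F2 with Cediranib at 10000 nM in HCC-38, named after its values were seen, had a log2 change of −0.30 (adjusted p = 0.051, edgeR), and passed with swap-corrected counts (−0.31, adjusted p = 0.046, edgeR) and with dose and replicate number as a block (−0.31, adjusted p = 0.0497, edgeR). Of 900 for the unfolded protein response genes ERN1, XBP1, ATF6, ATF4 and ATF3, 1 was higher. Over all compounds 52 were lower and 74 higher of 17400. For NFE2L2 and KEAP1 3 were higher and 1 lower, for ATG7 1 of 180 was higher, and for sgNT 2 of 180 were lower. Over all compounds the counts for NFE2L2 and KEAP1 were 49 lower and 38 higher of 6264. For ATG7 they were 12 lower and 12 higher of 3480, and for sgNT 10 lower and 14 higher of 3480. The heat shock factors had 27 lower and 28 higher of 6264, and SLC35F2 8 lower and 30 higher of 3480. The median log2 change of every one of these groups lay between −0.04 and 0.00.

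The 3 largest changes were in SKBR3 and ZR-75-1. In SKBR3 at 10000 nM Cabozantinib, sgNT had shares of 0.560 and 0.352 of its DMSO share (DMSO wells 0.567 to 1.57), a log2 change of −1.15 (adjusted p = 0.0057, edgeR) from 1665 and 730 reads. In ZR-75-1 at 10 nM Sorafenib, sgNFE2L2 had shares of 1.78 and 2.29 (DMSO wells 0.495 to 1.47), a log2 change of 1.02 (adjusted p = 2.8e-04, edgeR). At the same dose and line sgXBP1 had 1.34 and 1.86 (DMSO wells 0.665 to 1.69), a log2 change of 0.66 (adjusted p = 0.0013, edgeR). These Sorafenib wells were at the lowest dose, at which no line mean of that compound differed from DMSO.

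The other 5 changes were in HCC-38, the line with most reads. With Cediranib at 10000 nM sgATG7 rose to 1.04 and 1.43 (log2 change 0.30, adjusted p = 0.0099, edgeR), with only the second well above the DMSO maximum of 1.21. With Cediranib at 1000 nM sgNT was at 0.866 and 0.774 (log2 change −0.29, adjusted p = 0.035, edgeR) and sgNFE2L2 at 0.896 and 0.848 (log2 change −0.20, adjusted p = 0.026, edgeR). Those wells carried 12.8 and 10.1% of swapped reads, and with corrected counts the changes were −0.19 (adjusted p = 0.35, edgeR) and −0.09 (adjusted p = 0.65, edgeR). sgNFE2L2 was higher with Pazopanib at 1000 nM, at 1.14 and 1.15 (log2 change 0.19, adjusted p = 0.020, edgeR), and with Brivanib at 1000 nM, at 1.13 and 1.13 (log2 change 0.17, adjusted p = 0.045, edgeR), where the DMSO maximum was 1.14. The Brivanib change did not pass with swap-corrected counts (adjusted p = 0.051, edgeR). With dose and replicate number as a block neither it (adjusted p = 0.068, edgeR) nor Cediranib with sgNT (adjusted p = 0.069, edgeR) passed. Of the 8 changes, 3 kept their call with the line total as offset, 1 with the sgNT offset and 4 without the first wells. Without the second wells none of the 8 changes passed (adjusted p from 0.20 to 1.00, edgeR).

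ATG7 was examined for the compounds whose annotation names autophagy. Over Brivanib, Cediranib, Pazopanib, Regorafenib and Sorafenib the share of sgATG7 cells passed in 1 of 100 tests, with a median log2 change of −0.01 and a range of −0.48 to 0.34. Over the other 4 compounds it passed in 0 of 80, with a median of −0.05 and a range of −0.52 to 0.29, and over all compounds in 24 of 3480, with a median of −0.01. At an unadjusted p of 0.05 the counts were 4 of 100, 4 of 80 and 240 of 3480.

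Over all 4 doses, 58 line and sgRNA pairs were tested for each of the 9 compounds. Of these AUCs, 7 differed from the median of their line (limma), all higher. Their share was close to the 1.21% over all compounds, so such calls were not more common with these inhibitors than in the screen. The largest were Cediranib with sgSLC35F2 in ZR-75-1, with AUCs of 338.8 and 393.5 against medians of 237.6 and 241.4 (difference 126.6 ± 18.1, SE), and Cediranib with sgATF4 in MDA-MB-231, with 332.9 and 382.3 against 282.6 and 268.3 (82.2 ± 16.6, SE). Cediranib with sgKEAP1 in HCC-38 followed, with 309.999 and 299.2 against 253.1 and 237.9 (59.1 ± 8.03, SE). Regorafenib with sgATF4 in MDA-MB-231 gave 56.3 ± 9.91, Lenvatinib with sgKEAP1 in HCC-38 54.9 ± 11.5, Ki8751 with sgATF3 in SKBR3 46.2 ± 9.47 and Ki8751 with sgATF6 in BT-20 34.9 ± 7.56 (SE). Of the 7, the first 5 were Cediranib, Lenvatinib or Regorafenib with the sgRNA that had the fewest reads of its line in DMSO, from 1554 reads per well for sgSLC35F2 in ZR-75-1 to 4308 for sgKEAP1 in HCC-38.

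With swap-corrected counts these 5 differences were 92.6 (adjusted p = 0.082, limma), 20.8 (adjusted p = 0.92, limma), 2.35 (adjusted p = 1.00, limma), 44.6 (adjusted p = 0.097, limma) and 8.65 (adjusted p = 0.98, limma) in the order above. Both Ki8751 differences were larger after correction and passed, at 52.5 for sgATF3 (adjusted p = 0.027, limma) and 37.8 for sgATF6 (adjusted p = 0.044, limma). The sgATF6 difference did not pass with the replicate number as a block (adjusted p = 0.053, limma). The sgKEAP1 cells of HCC-38 thus stood 59.1 above the median with Cediranib as deposited and 2.35 above it after correction. For both Ki8751 results, the difference from sgNT in place of the median was 37.6 (adjusted p = 0.68, limma) and 46.01 (adjusted p = 0.26, limma). Ki8751 in SKBR3, the setting of the sgATF3 result, is removed by the exclusion criteria of the methods. No SKBR3 mean of that compound differed from DMSO at any dose.

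**Figure D5:**
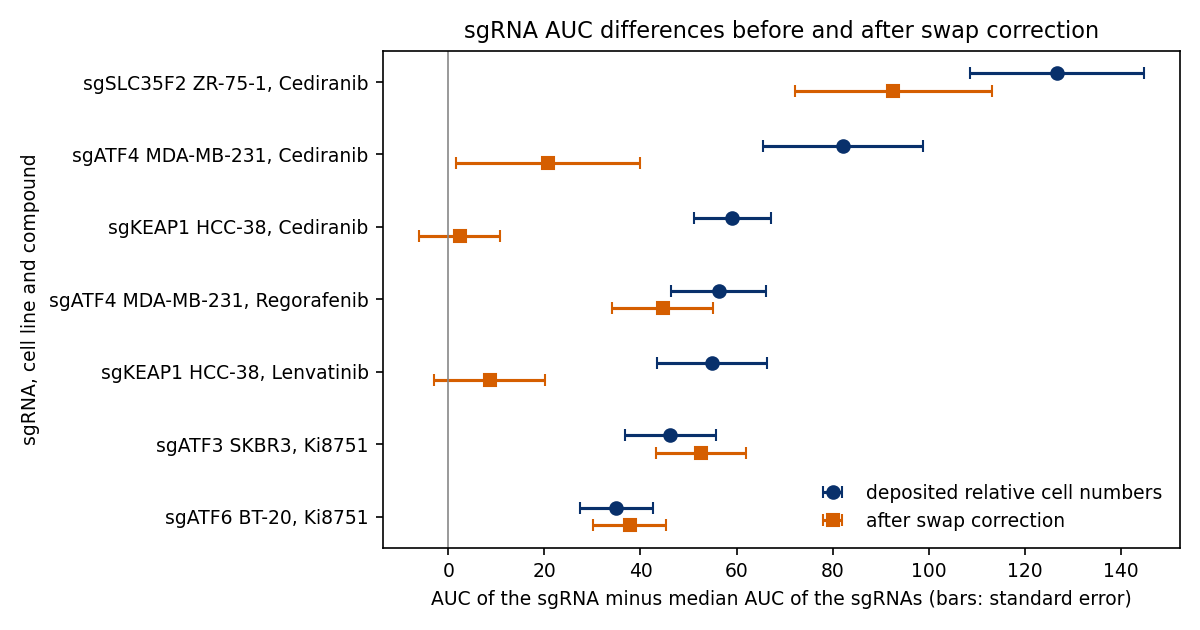
Difference between the AUC of an sgRNA and the median AUC of the sgRNAs of its line (horizontal axis, AUC units) for the 7 differences that passed, from the deposited values (circles) and after swap correction (squares). Bars are standard errors. After correction the Cediranib and Lenvatinib differences with sgKEAP1 lie near 0, that of Cediranib with sgATF4 at 20.8, and those of Ki8751 are slightly larger.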

How the data were processed

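Relative cell numbers of 9 compounds in 5 breast cancer lines were analysed with those of the other compounds and the DMSO wells. The authors demultiplexed with bcl2fastq2 and deposited, for every well, the read count of each pair of line and sgRNA barcodes, not normalized, allowing 1 mismatch in either barcode. They also deposited, for all but 6 compounds with few reads, relative cell numbers as a ratio (times 100) of the cell number read from a standard curve of 5 spike-ins (15, 45, 135, 405 and 1215 cells of a human embryonic kidney line) to the DMSO median. DMSO values were recomputed here from the counts, and recomputed compound values differed from the deposited ones by at most 5.3e-05 (log2).

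Line means were averaged over sgRNAs without ZR-75-1 sgHSF1 and sgKEAP1, as in the methods, and fitted on the log2 scale with limma 3.58.1 in R 4.3.3, a coefficient for each compound and dose and 1 for DMSO. AUC was 0.5 × dose 1 + dose 2 + dose 3 + 0.5 × dose 4. sgRNA shares were tested with edgeR 4.0.16 on counts, with DESeq2 1.42.0 as an alternative. Swap-corrected counts had the swapped share of free pairing subtracted. All tests were two-sided with Benjamini-Hochberg adjustment over the tests named with them, at a threshold of 0.05. The tests of response, matched-dose pairs, line differences (SKBR3 only), sgRNA AUCs and sgRNA shares were run on simulated data. Those values were drawn independently, with no plate effect added, and the sgRNA AUCs with 1 fixed SD. The runs therefore do not cover errors shared by wells, and no result here rests on them. The AUC pair test and the swap test were not run on simulated data. The DMSO labels tie each dose and replicate number to 2 of the 16 plates, so a term for both was fitted as a block in an alternative. Deviations of same-numbered wells of 2 compounds correlated with medians of 0.09, 0.01, 0.03 and 0.02 over 36 pairs at 10, 100, 1000 and 10000 nM, and over 0.1 in 14, 9, 15 and 12 of them. Compound labels do not say which of the 2 plates a well was on, and no term for single plates was fitted. The comparison with DMSO wells of the same dose and replicate number was added after the data were seen. The guides were not placed on a genome here.

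The members, lists and tests were chosen with earlier results of these data known. Named were all 9 compounds, the sgRNA shares that passed (up to 10), sgATG7 with the autophagy-listed compounds, for each compound the line difference of lowest adjusted p, the 4 structurally related pairs and the 2 closest and 2 farthest pairs. Alternatives and their effect are given in the closing section.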

Additional observations from a re-analysis of the deposited data

Results flagged for a closer look

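Under each of the 9 compounds a cell line responded differently from the mean of the other 4 lines in the same wells, by a limma test of that difference with the well as a block. Given for each compound is the comparison with the lowest adjusted p over its doses and lines. It was at 10000 nM for every compound, and n was 2 wells. At that dose 50.9% of such comparisons passed over all compounds, so a differing line was common in the screen. ZR-75-1 was the lower line in 6 of the 9, and passed as lower with 33.3% of all compounds at that dose. The log2 difference was −0.81 with Regorafenib (25.7 against 44.9% of DMSO), −0.78 with Ki8751 (42.2 against 72.5%), −0.77 with Pazopanib (37.2 against 63.3%), −0.64 with Brivanib (49.4 against 77.1%), −0.55 with Cabozantinib (36.4 against 51.04%) and −0.55 (−0.545) with Tivozanib (42.9 against 62.2%).

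BT-20 was higher by 1.22 with Cediranib (26.6 against 11.4%). HCC-38 was higher by 0.48 with Sorafenib (58.4 against 41.9%) and lower with Lenvatinib, by a log2 difference of −0.39 (74.7 against 97.3%). These 9 differences all passed with swap-corrected counts. Those of Cabozantinib, Lenvatinib and Sorafenib did not pass without the well as a block (adjusted p = 0.21, 0.11 and 0.070, limma). With sgNT cells alone the same 3 and Brivanib did not pass (adjusted p = 0.18, 0.53, 0.59 and 0.42, limma). The largest adjusted p of the 9 with the block was 0.0016 (limma).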

How the results depend on the processing

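The counts rest on 2 wells per dose from the same dilution. With dose and replicate number, which mark 2 plates each, as a block, the response calls were 45 in place of 44 (43 shared), pair calls 61.7% at 10000 nM as without it, AUC pair calls 43, sgRNA share calls 7 (6 shared) and sgRNA AUC calls 6 (6 shared). The calls that the block changed are named in the report, and no other call changed.

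Below 10000 nM the 6 means called different from DMSO became 13 on the percent scale and 10 with swap-corrected counts. Pair differences at 10000 nM fell from 61.7% of comparisons to 32.8% with sgNT alone, and to between 40.6 and 56.1% when a replicate was left out. Pair differences at the lower doses, 20 in all, were 44 on the percent scale, 12 with sgNT alone, 31 with reads over standards and 9 to 10 when a replicate was left out. AUC pair differences were 12 with sgNT alone (43 in the main setting). Line differences were 18 without the well as a replicate block and 7 with sgNT alone (38). sgRNA share calls were 5 with the line total as offset, 17 with the sgNT offset, and 5 to 8 when a replicate was left out (8). Of the 8, these settings shared 3, 1, and 0 to 4. sgRNA AUC differences were 2 with sgNT as reference, 2 with swap-corrected counts and 22 by the methods' t-test and size threshold (7); the t-test left 0 after Benjamini-Hochberg adjustment. Swap calls, 9 in all, were 0 to 8 when a replicate was left out (8 to 11 at an unadjusted p of 0.05); the exact test then allows no p below 0.0103.

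Lenvatinib at 10000 nM turned negative in SKBR3 with sgNT alone (log2 −0.10), swap-corrected counts (−0.036) and without replicate 2 (−0.14 against 0.27 without replicate 1), and in BT-20 with sgNT alone (−0.12) and without replicate 2 (−0.077 against 0.30 without replicate 1); sgNFE2L2 with 1000 nM Cediranib in HCC-38 turned positive with the sgNT offset (0.082). None of these was past the threshold in that setting. The cause was not tested. The swap-corrected AUC settings were chosen after seeing the data.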

Other observations

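With Cediranib the SD of AUC over the sgRNAs of a line had a median over the 5 lines of 24.6 as deposited and 12.7 after swap correction. In HCC-38, over 12 sgRNAs that share wells and standards, the AUC with Cediranib had a Spearman correlation of −0.81 with the reads of the sgRNA in DMSO wells, and −0.08 after correction. This correlation moved from −0.76 to −0.50 in ZR-75-1 and from −0.59 to −0.27 in SKBR3. It moved from −0.52 to −0.14 in BT-20 and from −0.28 to −0.23 in MDA-MB-231. In HCC-38 the other compounds ran from −0.90 with Cabozantinib (−0.87 after correction) to 0.72 with Pazopanib (0.72 after correction). Lenvatinib there had −0.85, and −0.71 after correction. The cause of these correlations was not tested. With Pazopanib, whose wells carried 0.772 to 3.30% of swapped reads, the median SD was 17.99 as deposited and 17.5 after correction. With Lenvatinib, which carried more swapped reads, the values were 24.03 and 23.9.

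By the methods' t-test against sgNT and size threshold, 22 of the 380 line, compound and sgRNA combinations that passed the exclusion criteria for these 9 compounds were hits. The share of hits was higher than over all compounds by the same rule, and the difference between these shares was not tested. Most hits were with Pazopanib in ZR-75-1 and SKBR3 or with Sorafenib in ZR-75-1. Hits of the same compound and line share an sgNT reference, so they are not independent. The hits included Cediranib with sgKEAP1 in HCC-38 and with sgSLC35F2 in ZR-75-1. With swap-corrected counts their differences from the line median were 2.35 and 92.6, and neither passed. After Benjamini-Hochberg adjustment 0 hits were left, for the 9 compounds and over all compounds alike. Lenvatinib kept 1 of 5 lines under those criteria, Brivanib and Ki8751 3, Tivozanib 4 and the other 5 compounds all 5.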
